A study of Mus musculus with 6 samples.

Results

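Dendritic-cell genes were examined in ectopic endometriotic lesions whose uterine tissue came either from control (WT) or from Dnmt3a knockout (KO) donor mice. The 10 genes were taken by symbol from a list of dendritic-cell genes and were found once each among the 56884 genes of the count table. They comprise 2 genes shared by conventional dendritic cells (Flt3 and Zbtb46), 4 genes of the cDC1 subset (Xcr1, Clec9a, Batf3 and Irf8), 2 genes used for the cDC2 subset (Irf4 and Cd209a), Siglech for plasmacytoid dendritic cells and Fscn1 for mature dendritic cells. WT donors were Dnmt3a f/f mice and KO donors were Dnmt3a f/f:PR-Cre/+ mice, whose Cre recombinase is driven by the progesterone receptor gene, so both groups carry the floxed allele. Each group had 3 lesions, and each lesion gave 1 library of messenger RNA from the whole tissue piece. According to the methods, donors and recipients were 8 weeks old, donors received estradiol injections, recipients were C57BL/6J females with an estradiol pellet, and lesions were taken on day 21 from the mesenteric membrane. The labels give 4 weeks, wild-type recipients and injection of uterine fragments into the peritoneal cavity. With wild-type recipients, cells that enter a lesion from the recipient do not carry the deletion, and the counts cannot tell donor cells from recipient cells.

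Dendritic cells take up antigen in tissues, mature, migrate to lymph nodes and present the antigen to T cells. FLT3 is the growth factor receptor that maintains them and ZBTB46 is a transcription factor of the conventional lineage. The cDC1 subset depends on IRF8 and BATF3, cross-presents antigen to CD8+ T cells and carries the chemokine receptor XCR1 and the dead-cell receptor CLEC9A. The cDC2 subset depends in part on IRF4 and primes CD4+ T cells, and plasmacytoid dendritic cells are specialized producers of type I interferon. Several of the genes are not restricted to dendritic cells. IRF8 is also made by macrophages and B cells, IRF4 by plasma cells and activated lymphocytes, ZBTB46 by endothelium, and fascin, the actin-bundling protein encoded by Fscn1, by several non-immune cells.

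Library totals lay between 45370342 and 57239184 counts. Dnmt3a, counted over the whole gene and therefore no direct check of the deleted part, was at 43.9 to 52.7 CPM (counts scaled to a common library total) in WT and 30.4 to 36.2 CPM in KO lesions, a log2 fold change of -0.57 (SE, the standard error, 0.14, unadjusted p = 0.00584 and adjusted p = 0.321 by the quasi-likelihood test of edgeR). WT replicate 2 stood apart by its leukocytes: Ptprc, which encodes the common leukocyte antigen CD45, had 652 CPM there, against 87.4 and 76.2 CPM for WT replicates 1 and 3 and 32.3 to 72.1 CPM in the KO lesions. In WT replicates 1 and 3, 8 skeletal muscle genes took 2.90% and 3.19% of the counts and in the other libraries at most 0.00140%.

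All 10 genes had a lower fitted level in KO than in WT lesions. Their median log2 fold change was -0.71, beside 0.01 over all 18177 genes tested, of which 48.6% were below 0. Calls required both an unadjusted p below 0.05 and a log2 fold change past -1 or 1. By edgeR's quasi-likelihood test, 0 of the 10 genes were called lower and 0 higher, where 5.85% of all genes were called lower and 3.1% higher. At an unadjusted p-value under 0.05 alone, 1 of the 10 was lower (Xcr1), where 8.16% of all genes were, and 0 were higher (6.55%). DESeq2's Wald test likewise gave 1 lower gene, where 2307 of 29812 genes were lower, and limma voom gave 3, where 2882 of 18177 were. Of these 3, Batf3 also passed the fold threshold, as 8.38% of all genes did. With edgeR, DESeq2 or limma voom, 0 of the 10 passed 0.05 after adjustment (0.0055% of all genes were lower and 0.0% higher by edgeR), and the lowest adjusted p was 0.0994 in limma voom, for Batf3. The groups did not overlap for Xcr1 only, with KO lower, where 8.74% of all genes were apart in that direction and 10.7% in the other.

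**Figure D1:**
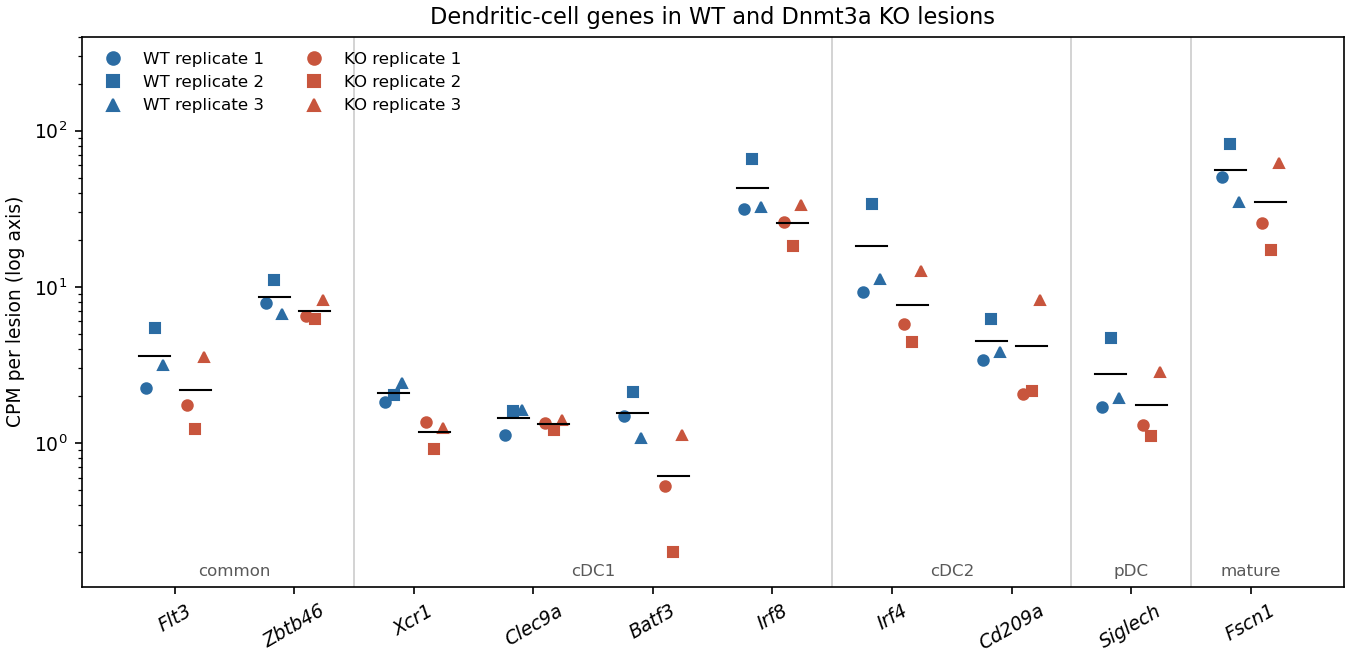
Level of each gene in CPM (log axis) in the 3 WT (blue) and 3 KO (red) lesions, with marker shapes for the replicate number and black bars for arithmetic means. WT replicate 2 is the highest lesion for 7 of the 10 genes and KO replicate 2 the lowest for 8, and the groups are apart for Xcr1 alone.

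The order of the lesions recurred from gene to gene. WT replicate 2 held the highest level of 7 of the 10 genes (24.2% of all genes), WT replicate 3 of 2 (Xcr1 and Clec9a) and KO replicate 3 of 1 (Cd209a). Among the KO lesions, KO replicate 3 was highest for 9 of the 10 genes (37.7% of all genes), and KO replicate 2 was the lowest of all 6 lesions for 8 (20.2% of all genes). For 9 of the 10 genes, Clec9a being the exception, WT replicates 1 and 3 both lay above KO replicates 1 and 2. This count leaves out WT replicate 2 and KO replicate 3, and the share of all genes with this order was not computed. Without KO replicate 3, 5 of the 10 genes were called lower (Flt3, Batf3, Irf4, Cd209a and Fscn1), where 8.66% of all genes were, and no adjusted p-value of the 10 was under 0.05 (lowest 0.164, edgeR). Without WT replicate 2, 0 of the 10 were called lower and 0 higher (5.86% and 2.1% of all genes), 0 reached 0.05 without adjustment, and the log2 fold changes lay between -1.05 and 0.21.

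The receptor gene Flt3 (ENSMUSG00000042817.16) had 2.26, 5.45 and 3.16 CPM for WT replicates 1 to 3, against 1.75, 1.23 and 3.54 CPM in the same order for KO. KO replicate 3 lay above WT replicates 1 and 3, so the groups overlapped. Its log2 fold change was -0.74 (SE 0.52, edgeR unadjusted p = 0.210, adjusted 0.506). It was -0.32 without WT replicate 2 and -1.28 without KO replicate 3. Zbtb46 (ENSMUSG00000027583.14) was the steadier of this pair. It had 7.92, 11.0 and 6.71 CPM across the WT lesions against 6.53, 6.26 and 8.29 in KO, with a log2 fold change of -0.28 (SE 0.25, edgeR adjusted p = 0.593), and -0.06 without WT replicate 2. Flt3l, which encodes the ligand of FLT3, had 0.726, 1.78 and 0.683 CPM across the WT lesions against 1.07, 0.477 and 1.48 in KO. Its log2 fold change of -0.07 (SE 0.59) took the other sign with upper quartile scaling, with limma voom and without WT replicate 2 or KO replicate 2.

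Of the surface receptors of the cDC1 subset, Xcr1 was apart between the groups and Clec9a was not. Xcr1 (ENSMUSG00000060509.6), the receptor for the chemokine XCL1 of T and natural killer cells, had 1.84, 2.03 and 2.43 CPM across the WT lesions against 1.37, 0.914 and 1.25 in KO. The KO maximum was below the WT minimum (two-sided exact permutation p = 0.1, which is the lowest p that 3 lesions against 3 allow). WT lesions averaged 2.10 ± 0.306 CPM and KO lesions 1.18 ± 0.236 CPM (± SD, n = 3 each). KO against WT gave a log2 fold change of -0.83 (SE 0.29, edgeR unadjusted p = 0.0289, adjusted 0.328), with a span of -0.95 to -0.68 when lesions were left out in turn, with unadjusted p-values from 0.0440 to 0.0876. Adjusted p-values of Xcr1 ran from 0.102 to 0.669 over all alternatives.

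Clec9a (ENSMUSG00000046080.18), the receptor for actin exposed on dead cells, had 1.13, 1.60 and 1.62 CPM across the WT lesions against 1.33, 1.21 and 1.40 in KO. The KO lesions all lay within the WT range, and the lowest lesion was WT replicate 1. The fitted log2 fold change was -0.14 (SE 0.28, edgeR adjusted p = 0.817). These levels rest on 46 to 114 counts of Xcr1 and 53 to 76 counts of Clec9a per library. Within each library, Xcr1 had 1.62, 1.27 and 1.5 counts per count of Clec9a in WT and 1.03, 0.754 and 0.896 in KO lesions. This ratio needs no scaling of libraries, and it was lower in every KO than in every WT lesion. The difference of the log2 ratios was -0.72, with SDs of 0.18 in WT and 0.22 in KO (n = 3 each, two-sided exact permutation p = 0.1, the lowest possible, and 0.333 after Benjamini-Hochberg adjustment over 10 ratios). The 10 ratios were chosen after the levels were known, and 3 of them had groups that did not overlap.

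**Figure D2:**
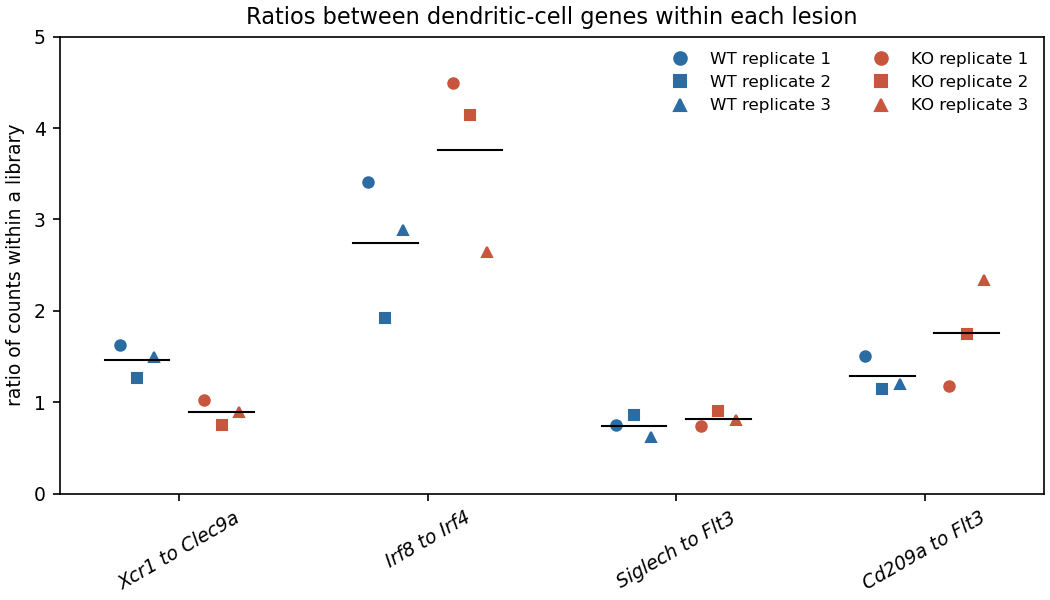
Counts of 1 gene per count of another within each library, for 4 of the 10 ratios computed, with 3 WT (blue) and 3 KO (red) lesions each and black bars for means. The ratio of Xcr1 to Clec9a is 1.27 to 1.62 in WT and 0.754 to 1.03 in KO lesions, while the WT and KO points overlap for the other ratios shown.

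Batf3 (ENSMUSG00000026630.10), an AP-1 factor required for cDC1 development, had 1.49, 2.12 and 1.07 CPM across the WT lesions against 0.526, 0.199 and 1.13 in KO. KO replicates 1 and 2 lay below all WT lesions, and KO replicate 3 lay just above WT replicate 3. The fitted log2 fold change was -1.34 (SE 0.65, edgeR unadjusted p = 0.0870, adjusted 0.375). It was -2.09 without KO replicate 3 (edgeR unadjusted p = 0.0195), -0.91 without KO replicate 2 (0.144) and -1.05 without WT replicate 2 (0.210). The counts were few, from 50 to 94 in WT and 30, 10 and 54 in KO lesions.

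Irf8 (ENSMUSG00000041515.11), a factor on which the cDC1 subset depends, had 31.5, 65.5 and 32.5 CPM across the WT lesions against 25.9, 18.3 and 33.3 in KO. WT replicates 1 and 3 lay just below KO replicate 3. Its log2 fold change was -0.74 (SE 0.37, edgeR unadjusted p = 0.0929, adjusted 0.379), and -0.31 without WT replicate 2. Markers of the other cells that make Irf8 were measured beside it. Of 8 B-cell genes, 6 were called lower in KO lesions, and their summed level was 17.02, 91.8 and 11.3 CPM in WT and 7.95 to 10.7 CPM in KO lesions. Cr2 was the only B-cell gene at 0 in a library. Of 12 macrophage and monocyte genes, 1 was called lower, and their summed level was 2255 to 6337 CPM in WT and 1494 to 3193 CPM in KO lesions. The part of these cells in the level of Irf8 was not tested. Irf8 had 0.147, 0.110 and 0.165 counts per count of Csf1r, the macrophage growth factor receptor gene, in WT and 0.221, 0.197 and 0.126 in KO lesions, and these ranges overlapped. Per count of Ms4a1, the B-cell gene for CD20, Irf8 had 10.4, 3.26 and 21.1 counts in WT and 92.1, 57.5 and 42.1 in KO lesions, without overlap. This difference of the log2 ratios was 2.76, with SDs of 1.36 in WT and 0.57 in KO lesions (n = 3 each, two-sided exact permutation p = 0.1, the lowest possible, and 0.333 adjusted over the 10 ratios). Ms4a1 had 142, 894 and 72 counts in WT and 16, 16 and 38 in KO lesions (log2 fold change -4.15, SE 1.15). The ratio therefore rose with the fall of Ms4a1, while Irf8 itself was not higher.

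DNMT3A methylates cytosine in CpG dinucleotides, and the promoters of the 4 cDC1 genes differ in how many they hold. The windows below run from 250 bases before to 50 after the start of the RefSeq gene on build GRCm38.p6 and are printed in the direction of transcription, chosen to set the factors Irf8 and Batf3 beside the receptors Xcr1 and Clec9a. Irf8 has a further RefSeq start, whose window holds neither motif. Capitals mark the letters TTCNNNGAA (N is any base), the core of a STAT-binding GAS palindrome, searched on both strands.
Irf8, chr8:120736108-120736407, plus strand: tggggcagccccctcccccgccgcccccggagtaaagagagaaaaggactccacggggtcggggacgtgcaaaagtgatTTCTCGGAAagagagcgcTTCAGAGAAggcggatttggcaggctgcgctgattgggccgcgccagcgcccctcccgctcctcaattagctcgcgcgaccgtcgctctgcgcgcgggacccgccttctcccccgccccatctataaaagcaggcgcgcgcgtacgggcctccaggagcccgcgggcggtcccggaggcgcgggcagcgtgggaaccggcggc
Batf3, chr1:191098164-191098463, plus strand: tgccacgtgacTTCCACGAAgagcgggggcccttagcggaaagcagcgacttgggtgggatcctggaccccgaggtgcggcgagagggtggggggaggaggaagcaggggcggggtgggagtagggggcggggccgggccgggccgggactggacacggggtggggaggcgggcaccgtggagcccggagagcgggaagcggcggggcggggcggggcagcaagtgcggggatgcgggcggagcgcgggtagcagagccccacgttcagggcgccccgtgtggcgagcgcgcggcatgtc
Xcr1, chr9:123861980-123862279, minus strand: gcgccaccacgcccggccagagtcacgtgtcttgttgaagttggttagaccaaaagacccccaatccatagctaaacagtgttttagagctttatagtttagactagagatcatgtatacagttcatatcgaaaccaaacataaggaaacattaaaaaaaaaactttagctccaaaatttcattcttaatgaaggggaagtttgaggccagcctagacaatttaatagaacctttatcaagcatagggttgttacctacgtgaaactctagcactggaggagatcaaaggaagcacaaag
Clec9a, chr6:129408612-129408911, plus strand: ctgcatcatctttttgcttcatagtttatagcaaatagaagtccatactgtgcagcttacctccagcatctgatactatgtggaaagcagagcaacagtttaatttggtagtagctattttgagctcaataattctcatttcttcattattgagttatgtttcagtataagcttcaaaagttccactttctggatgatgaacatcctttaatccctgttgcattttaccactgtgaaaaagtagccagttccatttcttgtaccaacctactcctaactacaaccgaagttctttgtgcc
The Irf8 window holds 38 CpG and that of Batf3 34, counts reached by 4.95% and 7.73% of the 32851 promoter windows of the same length. The Xcr1 window holds 6 CpG and the Clec9a window 1, where the median over all windows is 7. The GAS letters stand 2 times in the Irf8 window, at -171 and -153 from the start, 1 time in that of Batf3, at -239, and 1 time in that of Siglech, at -123, and 8.3% of all windows hold them. GAAANNGAAA, the core of an interferon-stimulated response element, was found in none of the 11 windows of the 10 genes, and in 3.44% of all windows. A match is a description of the letters, and methylation was not measured in these samples.

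For both cDC2 genes KO replicate 3 lay above 2 or 3 of the WT lesions. Irf4 (ENSMUSG00000021356.11), a factor of cDC2 function and of activated B and plasma cells, had 9.22, 34.1 and 11.2 CPM across the WT lesions against 5.75, 4.41 and 12.6 in KO. WT replicate 2 stood far above the rest, and KO replicate 3 lay above WT replicates 1 and 3. KO against WT gave a log2 fold change of -1.26 (SE 0.65, edgeR unadjusted p = 0.0992, adjusted 0.387), and -0.43 without WT replicate 2. Of 8 plasma-cell genes 3 were called lower, with a summed level of 408 to 1085 CPM in WT and 477 to 582 CPM in KO lesions, none was at 0 in any library, and their part in the level of Irf4 was not tested. Cd209a (ENSMUSG00000031494.8), is a C-type lectin of cDC2 and monocyte-derived cells. It had 3.42, 6.26 and 3.80 CPM across the WT lesions against 2.07, 2.15 and 8.27 in KO. Its highest and its lowest lesion were both KO lesions. The fitted log2 fold change was -0.11 (SE 0.63, edgeR adjusted p = 0.944), -1.09 without KO replicate 3, and above 0 without WT replicate 2 (0.21), KO replicate 1 (0.22) or KO replicate 2 (0.21). The ratio of Irf8 to Irf4 was 3.41, 1.92 and 2.89 in WT and 4.49, 4.14 and 2.64 in KO lesions, so the groups overlapped.

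Siglech (ENSMUSG00000051504.19), a sialic acid-binding receptor of plasmacytoid dendritic cells, had 1.69, 4.71 and 1.94 CPM across the WT lesions against 1.30, 1.11 and 2.83 in KO. For Siglech the log2 fold change was -0.67 (SE 0.57, edgeR adjusted p = 0.576), and -0.05 without WT replicate 2. Beside Flt3, the ranges of Siglech overlapped. Its counts per count of Flt3 were 0.745, 0.864 and 0.615 in WT and 0.740, 0.903 and 0.8 in KO lesions. The difference of the log2 ratios was 0.14, with SDs of 0.25 in WT and 0.14 in KO lesions (n = 3 each, two-sided exact permutation p = 0.5). Fscn1 (ENSMUSG00000029581.15) had 50.8, 82.2 and 35.2 CPM across the WT lesions against 25.7, 17.2 and 62.0 in KO. KO replicate 3 was above WT replicates 1 and 3. Its log2 fold change was -0.68 (SE 0.55, edgeR adjusted p = 0.555). Leaving out KO replicate 3 gave -1.38, leaving out WT replicate 2 gave -0.30, and leaving out KO replicate 2 gave -0.35.

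**Figure D3:**
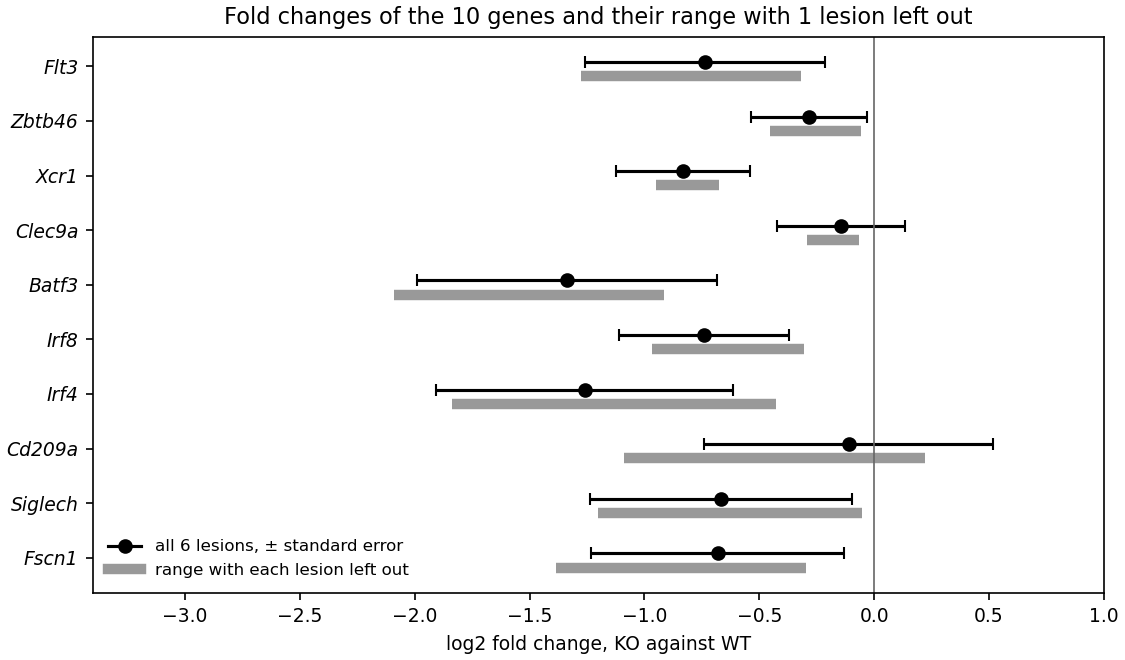
Log2 fold change of KO against WT for each gene (points, with bars for the SE of edgeR's fit) and its range when each lesion is left out in turn (grey bars). All 10 points lie below 0, and only the grey bar of Cd209a, from -1.09 to 0.22, crosses 0.

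Per kilobase of exon, Fscn1 had the highest mean level over the 6 lesions, 15.1 CPM per kilobase (range 5.71 to 27.3). Irf8 followed with 4.89 (2.59 to 9.29), then Cd209a with 2.73 (1.31 to 5.23) and Irf4 with 2.63 (0.899 to 6.96). The remaining genes were Zbtb46 at 0.916 (0.736 to 1.30), Batf3 at 0.681 (0.124 to 1.33), Siglech at 0.669 (0.329 to 1.39), Flt3 at 0.470 (0.199 to 0.882), Clec9a at 0.420 (0.344 to 0.493) and Xcr1 at 0.368 (0.205 to 0.547), all in CPM per kilobase. Each gene's range overlapped that of its neighbour in this order. In whole lesions, fewer cells of a type and less RNA per cell cannot be told apart.

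Set against Ptprc alone in the same library, the direction was the opposite of the fitted one. Counts of Irf8 were 36.0%, 10.04% and 42.6% of those of Ptprc in WT and 54.9%, 56.5% and 46.2% in KO lesions. Of the 10 genes, Zbtb46, Irf8 and Siglech had every KO lesion above every WT lesion on this ratio, and the difference of mean log2 ratios was 1.51, 1.07 and 1.13, respectively (two-sided exact permutation p = 0.1 each, the lowest possible), and without WT replicate 2 the count of such genes was also 3. All 10 differences were above 0, from 0.15 for Batf3 to 1.64 for Clec9a. WT replicate 2 had the lowest ratio of all lesions for each of the 10 genes. Counts of Batf3 were 1.71%, 0.324% and 1.40% of those of Ptprc in WT and 1.12%, 0.614% and 1.56% in KO lesions. The share of all genes that were above 0 or apart on this ratio was not computed. Ptprc itself was lower in KO lesions (log2 fold change -2.43, SE 0.94, edgeR unadjusted p = 0.0412, adjusted 0.332), and -0.69 without WT replicate 2. A gene that fell by less than Ptprc is therefore higher on this ratio. Laptm5, also a pan-leukocyte gene, had a log2 fold change of -0.07 (SE 0.28). Against the summed counts of Ptprc, Laptm5, Coro1a and Cd53, or of Itgax, Csf1r and Adgre1, 0 of the 10 genes had groups without overlap. The differences of mean log2 ratios then had both signs. They ran from -0.89 for Batf3 to 0.60 for Clec9a with the first sum, and from -0.79 to 0.69 for the same genes with the second.

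**Figure D4:**
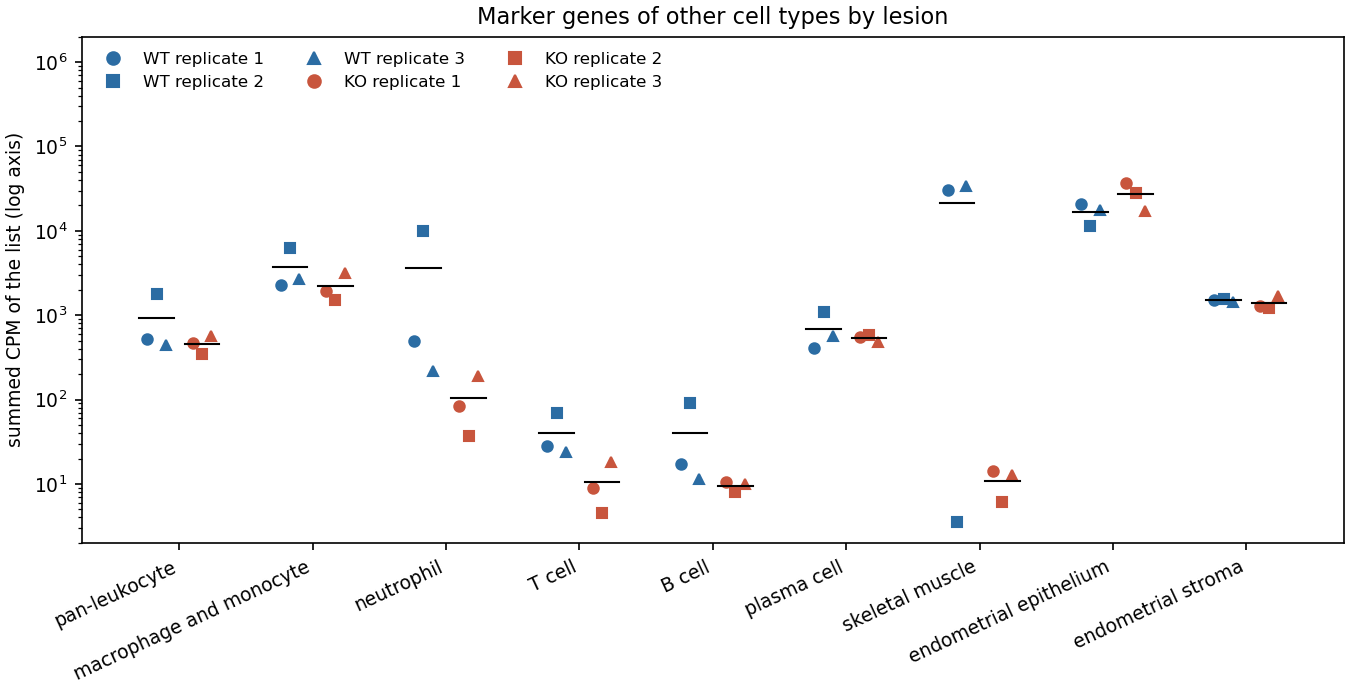
Summed CPM (log axis) of marker genes of other cell types in each lesion, WT in blue and KO in red, with black bars for arithmetic means. WT replicate 2 is highest for pan-leukocyte, macrophage, neutrophil, T-cell, B-cell and plasma-cell genes, and muscle genes are at 30520 and 33710 CPM in WT replicates 1 and 3 and at most 14.1 CPM elsewhere.

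Wider lists were then read around the 10 genes. Of 12 cDC1 genes, 0 were called in either direction by edgeR (median log2 fold change -0.34, 5 above 0). At an unadjusted p-value under 0.05, 1 was lower by edgeR, 1 lower and 1 higher by DESeq2, and 3 lower and 3 higher by limma voom. Over all genes, edgeR put 8.16% lower and 6.55% higher at this threshold. DESeq2 put 2307 of 29812 lower and 1486 higher, and limma voom 2882 of 18177 lower and 2596 higher. Cadm1, an adhesion molecule of cDC1 and also of epithelium, had 46.9, 19.3 and 59.1 CPM across the WT lesions against 98.7, 90.4 and 59.9 in KO (log2 fold change 0.99, SE 0.43, unadjusted p = 0.0613 from edgeR). Epithelial marker genes had a summed level of 11420 to 20660 CPM in WT and 17130 to 36420 CPM in KO lesions, Foxa2 was at 0 in 1 library, 0 of the 8 were called, and their part in Cadm1 was not tested. Where 5.85% of all genes were called lower and 3.1% higher, 2 of 12 cDC2 genes were called lower and 0 higher (median -1.12). Relb, a subunit of NF-kappa B needed in dendritic cells, was among them (log2 fold change -1.25, SE 0.43). Its fold change was -0.63 without WT replicate 2, which ends the call, and the call was also lost without any 1 of the KO lesions (unadjusted p from 0.0511 to 0.0812, edgeR). Sirpa, the inhibitory receptor that marks cDC2 and macrophages, had a log2 fold change of -0.27 (SE 0.28), and 0.07 without WT replicate 2.

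Of 14 genes listed for plasmacytoid cells, 4 were called lower and 0 higher, with a median of -0.81, where 5.85% of all genes were called lower and 3.1% higher. By edgeR and limma voom 0 of the 14 passed 0.05 after adjustment, and by DESeq2 3 of the 13 with an adjusted p were lower (Irf7 at 0.00242, Ccr9 at 0.0188 and Cox6a2 at 1.672e-09). DESeq2 gave 3.90% of all genes lower by that rule. Irf7, the regulator of type I interferon production, had 124, 213 and 89.8 CPM across the WT lesions against 51.2, 40.4 and 50.6 in KO (log2 fold change -1.59, SE 0.33, edgeR unadjusted p = 0.00317, adjusted 0.321). All WT lesions lay above all KO lesions for Irf7. Siglech was at 1.11 to 4.71 CPM in the same lesions, and the part of other cells in the level of Irf7 was not tested. Ccr9, a homing receptor of plasmacytoid cells and gut T cells, had 1.71, 3.87 and 1.41 CPM across the WT lesions against 0.632, 0.358 and 0.792 in KO (log2 fold change -1.97, SE 0.54). Spib, a factor of plasmacytoid and B cells, was called with -2.60 (SE 0.96), was -0.97 without WT replicate 2, and lost its call there and without any 1 of the KO lesions. Cox6a2, also the muscle form of a cytochrome c oxidase subunit, had 128 and 93.3 CPM in WT replicates 1 and 3, the lesions that held muscle transcripts, and at most 0.720 CPM in the other libraries. The part of muscle in its level was not tested. Tcf4, the factor that maintains plasmacytoid identity, had a log2 fold change of -0.08 (SE 0.31) and took the other sign with upper quartile scaling and without KO replicate 1 or 2. Bst2, an interferon-induced surface protein of these cells, had -0.20 (SE 0.12).

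The list of mature and migratory dendritic cells held the most calls. Of its 18 genes, 10 were called lower and 0 higher, with a median log2 fold change of -1.37, where 5.85% of all genes were called lower. By edgeR and by limma voom 0 of the 18 passed 0.05 after adjustment. By DESeq2 4 of the 15 genes with an adjusted p were lower (Il12b at 0.000300, Cd83 at 0.0172, Ccl22 at 0.0184 and Cd40 at 0.0309) and 1 was higher (Socs2 at 0.00330), where DESeq2 gave 3.90% of all genes lower and 1.57% higher. The count called lower by edgeR was 4 to 6 without WT replicate 2 or without any 1 of the KO lesions. Several of these genes are also made by lymphocytes, and 8 T-cell genes, 6 of them called lower and none at 0 in any library, had a summed level of 23.9 to 69.0 CPM in WT and 4.57 to 18.3 CPM in KO lesions, beside the B-cell genes given above. The part of lymphocytes in this list was not tested. The chemokine receptor gene Ccr7, which guides mature cells to lymph nodes, had 1.54, 7.18 and 1.37 CPM across the WT lesions against 0.772, 0.516 and 1.29 in KO (log2 fold change -1.96, SE 0.78, edgeR adjusted p = 0.335). The KO maximum lay just below the WT minimum, the fold change was -0.75 without WT replicate 2, and the call was also lost without any 1 of the KO lesions. Cd83, a surface protein of mature cells, did not rest on that lesion: it had 16.2, 29.5 and 29.1 CPM across the WT lesions against 10.7, 7.99 and 12.9 in KO (log2 fold change -1.24, SE 0.30, edgeR adjusted p = 0.321), with a span of -1.48 to -1.08 when lesions were left out in turn. Cd40, the receptor for T-cell help, had 10.1, 23.8 and 19.1 CPM across the WT lesions against 3.33, 2.74 and 8.71 in KO (log2 fold change -1.84, SE 0.55, edgeR adjusted p = 0.322), and its call was lost without KO replicate 1 (unadjusted p = 0.0588). Il12b, a subunit of interleukin-12 and interleukin-23, had 0.897, 1.17 and 1.05 CPM across the WT lesions against 0.175, 0.238 and 0.292 in KO. Its log2 fold change of -2.13 (SE 0.34, edgeR adjusted p = 0.321) spanned -2.31 to -1.96 when lesions were left out in turn.

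The chemokines of mature cells that attract CCR4+ T cells, Ccl22 and Ccl17, had log2 fold changes of -2.22 (SE 0.66, edgeR unadjusted p = 0.0150, adjusted 0.321) and -2.04 (SE 0.68, edgeR unadjusted p = 0.0244, adjusted 0.328). Ccl22 was at -1.48 without WT replicate 2 and kept its call with each lesion left out. The call of Ccl17, which had 20, 4 and 6 counts in the KO lesions, was lost without WT replicate 1 (unadjusted p = 0.0880), KO replicate 2 (0.0664) or KO replicate 3 (0.0790). Relb, described above, is also in this list. For 3 further genes the call was lost without WT replicate 2 and without any 1 of the KO lesions. Cd274, the gene of the checkpoint ligand PD-L1, had 318 CPM there and 11.4 to 18.8 CPM in the other lesions, and its log2 fold change went from -3.10 to -0.39 without it. Pdcd1lg2, the gene of PD-L2, went from -2.76 to -0.93, and Samsn1, an adaptor of lymphocytes and myeloid cells, from -3.59 to -0.97. Socs2, a feedback inhibitor of growth hormone and cytokine signaling, was the gene of the list above the WT range in every KO lesion, with 37.5 to 48.0 CPM in WT and 71.7 to 83.4 CPM in KO lesions (log2 fold change 0.80, SE 0.14, unadjusted p = 0.00139). The ratio of Fscn1 to Ccr7 was higher in each KO than in each WT lesion, but only just. WT replicate 1 was at 33.06 and KO replicate 2 at 33.27, on 72 and 26 counts of Ccr7. There were 33.1, 11.5 and 25.8 counts of Fscn1 per count of Ccr7 in WT and 33.3, 33.3 and 48.0 in KO, a difference of log2 ratios of 0.82 (SDs of 0.80 and 0.30, n = 3 each, two-sided exact permutation p = 0.1, the lowest possible, and 0.333 adjusted over the 10 ratios).

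**Figure D5:**
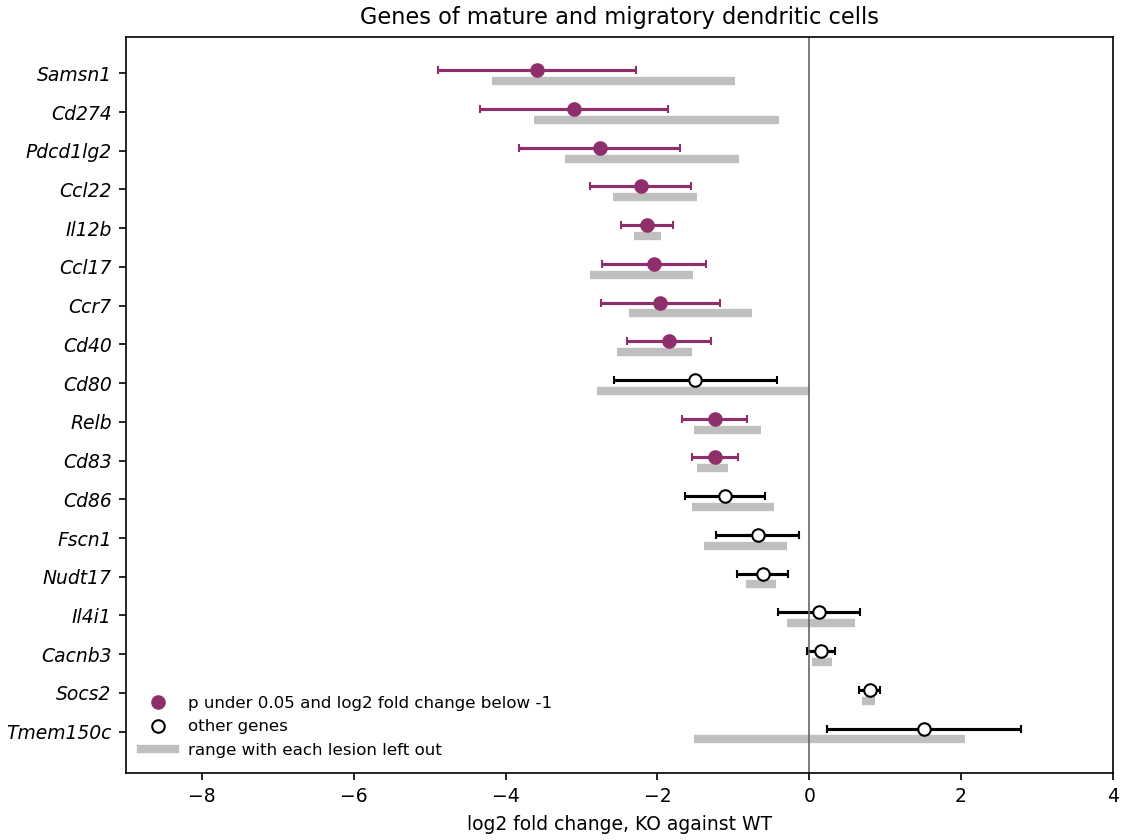
Log2 fold change of KO against WT for 18 genes of mature and migratory dendritic cells, with standard errors (bars) and the range with each lesion left out (grey). The 10 genes called lower are filled, and Fscn1 at -0.68 is not among them.

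Among 13 genes shared by dendritic cells or feeding their growth, 0 were called in either direction by edgeR (median -0.28). At an unadjusted p-value under 0.05, 1 was lower and 1 higher by edgeR, and 3 were lower and 2 higher by each of DESeq2 and limma voom. Over all genes this threshold gave 8.16% lower and 6.55% higher by edgeR. By DESeq2 2307 of 29812 were lower and 1486 higher, and by limma voom 2882 of 18177 were lower and 2596 higher. Itgax, the gene of the integrin CD11c, had 38.6, 15.9 and 35.8 CPM across the WT lesions against 36.4, 25.1 and 36.9 in KO, and WT replicate 2, the lesion with the most Ptprc, had the least of it. Its log2 fold change was 0.12 (SE 0.36, edgeR adjusted p = 0.884), and -0.18 without WT replicate 2. Csf2, the gene of the growth factor GM-CSF, was near the limit of detection with at most 0.427 CPM in any lesion and 0 counts in KO replicate 2 (log2 fold change -1.31, SE 1.17, and -3.87 without KO replicate 3).

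Over the 6 libraries, the genes with the pattern of log2 CPM most like that of Clec9a were P2rx1, Gzma and Slc22a23 (Pearson's r of 0.988, 0.968 and 0.966), and 7 of 15159 other genes had an r above 0.95. For Cd209a they were Cyp4b1, C9orf72 and Cyp7b1 (0.998, 0.997 and 0.996), among 127 genes above 0.95. Siglech was most like Cd38, Plin2 and Sh3bp5 (0.998, 0.998 and 0.997), among 320 genes, and Fscn1 most like Nxpe4, Ntpcr and Sema6b (1.00, 0.998 and 0.996), among 215. These values describe 6 points that share their libraries and carry no test.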

How the data were processed

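Per the labels and the methods, messenger RNA libraries (Illumina TruSeq Stranded mRNA) were made from 3 WT and 3 KO lesions. The deposited values are raw counts of reads per gene, without normalization. The authors trimmed reads and counted them on the Galaxy platform. The processing notes name Trimmomatic, featureCounts, DESeq2 and GRCm39, while the methods name GRCm38; the aligner and the annotation release are not given in the sources used here. Because the builds differ, gene coordinates were not used, and promoter coordinates belong to RefSeq on GRCm38.p6. Symbols and exon lengths came from GENCODE M21, in which 51948 of 56884 identifiers were found without their version (35 with the same version). Unmatched identifiers held 3.04% to 3.56% of the counts.

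Of genes with 10 to 200 counts, 82.9% to 85.3% per library had an even count, and genes at 2 counts outnumbered those at 1 count in every library. Whether both reads of a pair were counted is not given in the sources used here. If they were, the number of fragments is near 0.5 of the counts. A fit on counts divided by 2 was therefore added after the data were seen.

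Analysis used edgeR 4.0.16 (R 4.3.3): filterByExpr (18177 genes), TMM scaling, and a quasi-likelihood fit with genotype as the only term, with Benjamini-Hochberg adjustment over all genes. Standard errors were derived from the fold change and its F statistic, and CPM used TMM factors and no prior count. Alternatives were DESeq2 1.42.0, limma 3.58.1 (voom with quality weights), other scalings and filters, the replicate number as a term, and each lesion left out. The methods give 3 donors per genotype without tying libraries to them, so p-values measure the spread between these lesions. The named genes are the 10 members, the called genes of 5 dendritic-cell lists, 9 further genes (Itgax, Flt3l, Csf2, Ccr7, Cd83, Tcf4, Bst2, Cadm1 and Sirpa) and, for 4 members, the 3 genes of at least 1 CPM with the most similar pattern. Socs2, Ptprc and Csf1r, the ratios between genes, and marker genes of other cells named beside a result were chosen after their values were seen. For 1 called gene of the cDC2 list the values are not reported here. The members and lists were chosen with earlier results of these data known. Marker lists of T cells (6 of 8 called lower), neutrophils (4 of 8), skeletal muscle (6 of 6 tested), pan-leukocyte genes (1 of 4) and endometrial stroma (3 of 8 called higher) were read for the lesions' makeup only.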

Additional observations from a re-analysis of the deposited data

How the results depend on the processing

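Of 140 values of the 10 genes under 14 alternatives, 137 were below 0, and the 3 that were not belong to Cd209a (range with each lesion left out -1.09 to 0.22). The count of the 10 genes called lower, 0 with all lesions, was 1 with limma voom, 0 to 5 with each lesion left out (5 without KO replicate 3), and 0 under the other alternatives, in which 2.9% to 6.24% of all genes were called lower, and the count called higher was 0 throughout. Over all genes, 1628 were called, 2444 with no filter, 2681 with DESeq2 and 938 to 2671 with each lesion left out. The replicate number as a term, the replicate block, gave 945. Same-numbered WT and KO lesions had correlations of 0.03, -0.15 and -0.20 between their deviations from the group means, and no KO lesion correlated best with the WT lesion of its number, so the numbers were not read as pairs. The block took Xcr1 to an unadjusted p-value of 0.0724 and the mature list to 5 and the cDC2 list to 1 lower genes. With limma voom the lists had 1 (cDC1), 4 (cDC2), 2 (plasmacytoid), 5 (mature) and 3 (common) lower genes, and with DESeq2 4 (cDC2) and 2 (common). With each lesion left out they had 0 to 2 (cDC1), 1 to 6 (cDC2), 3 to 4 (plasmacytoid), 4 to 10 (mature) and 0 to 4 (common). Upper quartile scaling moved the median of all genes from 0.01 to 0.11 and turned Tcf4 to 0.013 and Flt3l to 0.018; limma voom turned Flt3l to 0.11 and Itgax to -0.14. With each lesion left out, Tcf4 ran from -0.46 to 0.13, Flt3l from -0.45 to 0.52, Itgax from -0.18 to 0.34 and Sirpa from -0.48 to 0.074. The count of genes apart from WT relative to Ptprc was 3, 3 to 7 with each lesion left out (7 without WT replicate 3), and 0 with either other reference. After adjustment, DESeq2 gave 773 lower and 310 higher genes of 19813, edgeR 1 and 0, and limma voom 12 and 0 of 18177. The causes of these shifts were not tested. Halved counts changed none of the calls of the 10 genes.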
